A study of Mus musculus with 8 samples.

Results

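The 10 genes studied here belong to the feedback of ERK signalling, whose products restrain the pathway, and to its nuclear response. They were followed in mouse embryonic stem cells (ESCs) and are the phosphatase genes Dusp4, Dusp5 and Dusp6, the Sprouty genes Spry1, Spry2 and Spry4, the Sprouty-related genes Spred1 and Spred2, and the ETS factor genes Etv4 and Etv5. They were taken by name, by a rule that uses no measured value, though with earlier results of these data known. They are 10 of the 38991 genes measured. The cells were of 1 line, RGd2 (Rex1GFPd2, strain 129), which carries a destabilised GFP reporter at the Rex1 locus, so the values describe a single line. They were first expanded for 6 passages in 2i. Then they were grown for 5 passages on gelatin, in N2B27 made up as 1 of 4 media, up to passage 11. They were split every 3 days at 15000 cells per cm2. The medium 2i+LIF held the cytokine LIF, the GSK3 inhibitor CH (CHIR99021, 3 µM) and the MEK inhibitor PD (PD0325901, 1 µM). The other media each lacked 1 of these: 2i lacked LIF, LIF+PD lacked CH, and CH+LIF lacked PD. As all cells came from 2i, those in 2i kept their medium and those in the other media gained LIF. Words such as rise, fall and withdrawal below compare media after these 5 passages and do not describe a change over time. RNA of 2 cultures per medium, 8 in all, was sequenced. The labels do not say whether the 2 cultures of a medium were grown independently, so that the p-values measure the spread between these samples, which may be technical.

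As background, FGF4 made by ESCs binds FGF receptors and, through RAS and RAF, activates the kinase MEK, which in turn phosphorylates ERK. Active ERK raises the transcription of genes that limit the pathway. DUSP6 dephosphorylates ERK in the cytoplasm and DUSP4 and DUSP5 do so in the nucleus, while Sprouty and SPRED proteins act further upstream, at the level of receptor signalling and of RAS and RAF. ETV4 and ETV5 are ETS-family transcription factors induced by FGF signalling. PD blocks MEK, so that withdrawing it is the change of medium that bears on ERK most directly. Blocking MEK is known to help ESCs stay in the naive state.

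Expression was given by the authors as FPKM, a measure scaled to transcript length and library size, which allows levels of different genes to be set side by side. Read numbers are not part of the values. The depth of the libraries, estimated from weak genes, was lowest in replicate 1 of 2i, at 0.499 of that of 2i+LIF replicate 1, and highest in CH+LIF replicate 2, at 1.18, and between 11659 and 12109 genes reached an FPKM of 1. All 8 of the naive ESC markers inspected, among them Pou5f1, Nanog, Zfp42 and Tbx3, reached an FPKM of 1 in the 8 cultures, the lowest being Tbx3 at 39.1 in replicate 2 of 2i. Relative to 2i+LIF, Nanog (-0.80) and Sox2 (-0.48) were called lower without PD, Klf4 (47.7 and 50.6 FPKM against 203 and 196), Tfcp2l1 (-1.03), Tbx3 (-0.83) and Esrrb (-0.49) without LIF, and Tfcp2l1 (-1.16), Klf4 (-0.85) and Esrrb (-0.42) without CH, where Zfp42 (0.32) was called higher, by the test described next. Their part in the changes of the 10 genes was not tested. Fold changes below are differences of log2(FPKM + 1), which understate the changes of weak genes. They were tested with limma over the 12927 genes that reached an FPKM of 1 in 2 or more cultures, and a gene was called at a Benjamini-Hochberg adjusted p below 0.05. All 10 genes passed this filter, Spry4 with an FPKM of at least 1 in 4 cultures only, those of 2i+LIF and CH+LIF.

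Promoter sequences, 250 bases before to 50 after the RefSeq start of transcription (GRCm38.p6), were found for 7 of the 10 genes, and no entry was at hand for Dusp4, Spry4 and Etv4. They were searched on both strands for the letters CCGGAAG (an ETS site), TGACTCA (an AP-1 site), TGACGT (the core of a cyclic AMP response element), ATCAAAG (a TCF/LEF site) and TTCNNNGAA (a STAT site). Of 32851 promoters of the same length, these letters were present in 8.86%, 5.20%, 7.51%, 3.73% and 8.30%, respectively. Among the 7 genes, a match was found only for TGACGT, once in Dusp5, 56 bases before the start, and once in Spred2, 52 bases before it. Shown are 3 of the genes that were higher without PD (Dusp6, at chr10:99262981-99263280, plus strand, Spry1, at chr3:37639697-37639996, plus strand, and Spred1, at chr2:117120821-117121120, plus strand), both genes with a match (Spred2, at chr11:19924192-19924491, plus strand, and Dusp5, at chr19:53528895-53529194, plus strand), and the first of the 2 starts of Etv5 (chr16:22439521-22439820, minus strand), whose level changed least between media. Capitals mark the match, read on the opposite strand.
Dusp6: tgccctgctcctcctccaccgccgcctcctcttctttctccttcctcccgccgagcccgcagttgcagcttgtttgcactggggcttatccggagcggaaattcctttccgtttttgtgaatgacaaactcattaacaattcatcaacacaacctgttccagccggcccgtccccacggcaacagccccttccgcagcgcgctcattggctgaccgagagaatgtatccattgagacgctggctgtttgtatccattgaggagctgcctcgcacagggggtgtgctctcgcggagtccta
Spry1: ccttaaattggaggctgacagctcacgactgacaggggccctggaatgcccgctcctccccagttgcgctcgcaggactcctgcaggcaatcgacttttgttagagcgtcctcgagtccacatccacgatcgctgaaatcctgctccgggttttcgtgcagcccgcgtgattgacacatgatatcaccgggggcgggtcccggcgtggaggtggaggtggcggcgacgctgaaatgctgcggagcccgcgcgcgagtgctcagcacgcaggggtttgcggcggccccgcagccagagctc
Spred1: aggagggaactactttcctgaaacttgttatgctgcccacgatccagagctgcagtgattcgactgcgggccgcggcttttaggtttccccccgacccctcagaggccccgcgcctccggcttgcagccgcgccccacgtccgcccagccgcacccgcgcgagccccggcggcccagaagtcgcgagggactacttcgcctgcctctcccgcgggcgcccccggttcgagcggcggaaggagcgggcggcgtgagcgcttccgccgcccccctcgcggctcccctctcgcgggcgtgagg
Spred2: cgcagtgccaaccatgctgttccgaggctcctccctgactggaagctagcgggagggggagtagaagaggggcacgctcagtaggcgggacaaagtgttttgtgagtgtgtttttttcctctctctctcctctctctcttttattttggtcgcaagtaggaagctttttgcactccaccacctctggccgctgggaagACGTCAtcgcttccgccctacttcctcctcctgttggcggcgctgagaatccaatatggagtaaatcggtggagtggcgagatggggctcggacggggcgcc
Dusp5: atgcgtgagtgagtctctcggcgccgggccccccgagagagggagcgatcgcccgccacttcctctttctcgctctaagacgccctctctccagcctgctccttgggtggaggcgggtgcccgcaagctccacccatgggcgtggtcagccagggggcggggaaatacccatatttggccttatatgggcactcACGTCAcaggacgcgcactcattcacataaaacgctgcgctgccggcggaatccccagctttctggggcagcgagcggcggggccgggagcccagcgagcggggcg
Etv5: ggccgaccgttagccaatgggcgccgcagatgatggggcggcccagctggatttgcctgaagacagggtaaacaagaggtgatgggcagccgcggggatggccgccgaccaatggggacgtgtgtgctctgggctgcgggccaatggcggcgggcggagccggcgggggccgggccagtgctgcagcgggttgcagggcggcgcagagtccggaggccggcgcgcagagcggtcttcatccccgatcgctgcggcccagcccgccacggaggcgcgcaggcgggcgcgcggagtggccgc

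Most of these genes were higher in the medium without PD than in 2i+LIF. In CH+LIF compared with 2i+LIF, 8 of the 10 were called higher and 0 lower, where 12.2% of all genes tested were called higher and 13.3% lower. The 8 were Dusp4, Dusp6, Spry1, Spry2, Spry4, Spred1, Spred2 and Etv4. Their log2 fold changes ran from 0.50 for Spry2 to 3.97 for Spry4, and the median of the 10 genes was 1.04, against 0.0070 over all genes tested. Dusp5 (0.48, adjusted p = 0.0903, limma) and Etv5 (0.17, adjusted p = 0.384, limma) did not pass. Rescaling the cultures to the same sum (TPM) raised the median of all genes by 0.18 and the share of calls that were higher from 47.9% to 74.1%, and the same 8 genes were called higher. Leaving out 1 culture gave 6 called genes without either 2i+LIF culture or without replicate 2 of CH+LIF, and 5 without replicate 1 of CH+LIF, where the calls over all genes fell from 3286 to between 1520 and 2032. Without any 1 culture of 2i or LIF+PD, 8 were called. As RNA of whole cultures was measured, a change in the amount of RNA per cell and a change in the share of cells that express a gene cannot be told apart.

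**Figure D1:**
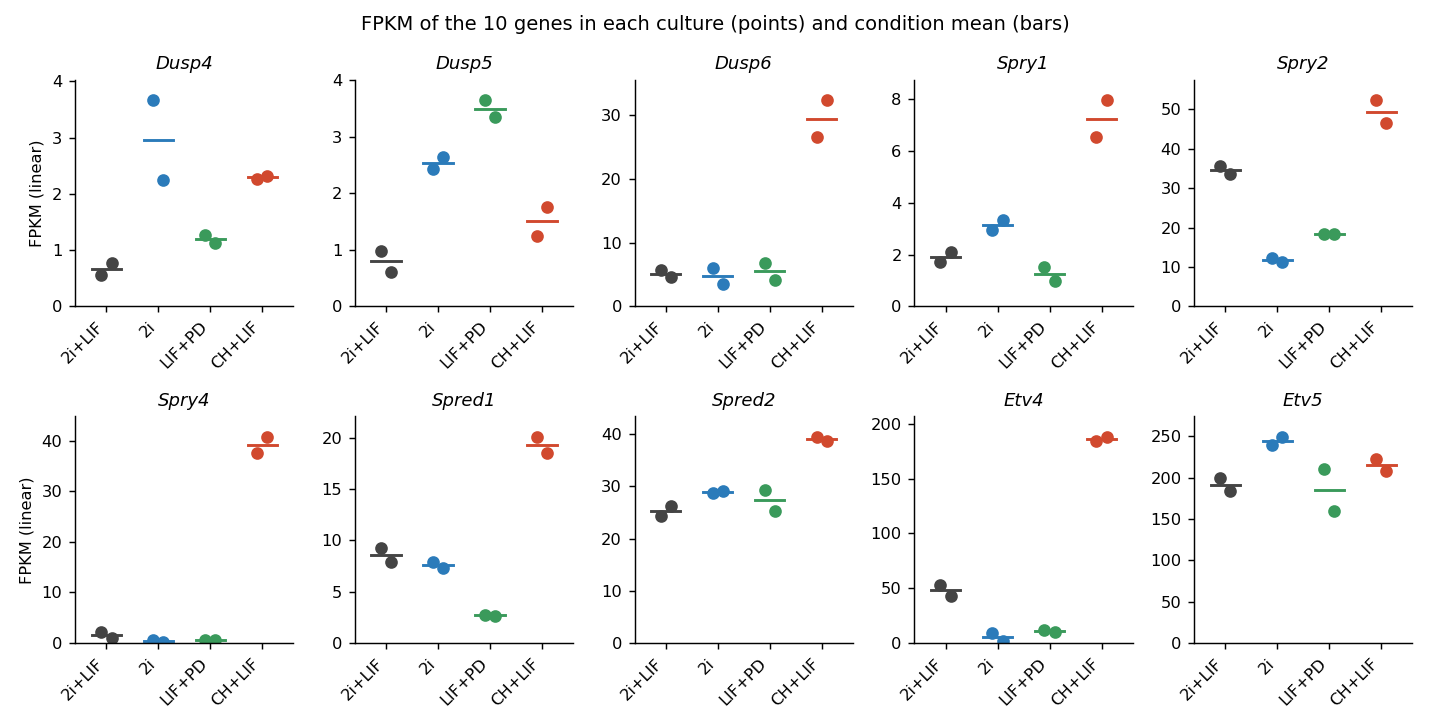
FPKM (linear axis from 0, its range differing between panels) of each of the 10 genes in the 8 cultures, with points for cultures and bars for the mean of the 2 cultures of a medium. In 7 panels both CH+LIF cultures lie above the other 6, from Spred2 (38.8 and 39.5 against at most 29.4) to Spry4 (37.5 and 40.7 against at most 2.17).

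In 7 of the 10 genes, namely Dusp6, Spry1, Spry2, Spry4, Spred1, Spred2 and Etv4, both cultures without PD lay above all 6 cultures with PD. Such a separation was found in 12.8% of all genes tested, and the opposite one, both cultures below the 6, in 13.9% of all genes and in 0 of the 10. The plot of FPKM by culture shows that the 7 genes differed in how the 3 media with PD were ordered.

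Among the phosphatases, Dusp6, on chromosome 10 (99263231 to 99267489, plus strand), had FPKM of 5.64 and 4.58 in 2i+LIF, 5.99 and 3.55 in 2i, 6.86 and 4.11 in LIF+PD, and 26.5 and 32.3 in CH+LIF. The ranges of the 3 media with PD overlapped, and both CH+LIF cultures were far above them. The mean in CH+LIF, 29.4 ± 4.06 (SD, n = 2), was 5.76-fold that in 2i+LIF, 5.11 ± 0.749. The log2 fold change was 2.31 ± 0.27 (SE, adjusted p = 0.00192, limma). It was 2.42 against 2i and 2.26 against LIF+PD, with adjusted p of 0.00141 and 0.00122 (limma).

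Dusp4, which encodes a nuclear phosphatase of ERK (chromosome 8, 34807297 to 34819894, plus strand), was weaker, with 0.562 and 0.769 in 2i+LIF, 3.66 and 2.25 in 2i, 1.26 and 1.13 in LIF+PD, and 2.26 and 2.32 in CH+LIF. The 2i+LIF cultures were the lowest, and the values of 2i and CH+LIF overlapped. Dusp4 was called higher in CH+LIF (0.98, adjusted p = 0.0137, limma) and in 2i (1.23, adjusted p = 0.0071), each relative to 2i+LIF. Its level was thus higher in the media lacking PD or LIF than in 2i+LIF. CH+LIF and 2i did not differ by the test (-0.24, 95% interval -0.72 to 0.23). The call in CH+LIF was lost on leaving out replicate 1 of 2i+LIF (adjusted p = 0.0763, limma) or either CH+LIF culture (0.0669 without replicate 1 and 0.0611 without replicate 2).

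Dusp5, the other nuclear phosphatase (chromosome 19, 53529109 to 53542431, plus strand), had 0.982 and 0.609 in 2i+LIF, 2.44 and 2.64 in 2i, 3.65 and 3.35 in LIF+PD, and 1.25 and 1.76 in CH+LIF. The 4 media did not overlap, and the highest level was in LIF+PD, a medium with PD. Relative to 2i+LIF it was called higher in LIF+PD (1.33, adjusted p = 0.00239, limma) and in 2i (0.99, adjusted p = 0.00996). The latter call was lost without replicate 2 of 2i+LIF (adjusted p = 0.0640, limma). CH+LIF was lower than LIF+PD by the test (-0.85, adjusted p = 0.0114, limma), though not without replicate 1 of LIF+PD (0.0636) or replicate 1 of CH+LIF (0.0716). An antisense gene overlaps Dusp5. The methods state strand-aware assignment for the study's read counts, and whether it also held for the FPKM values is not given in the sources used here.

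Spry4 had the largest fold change of the 10 genes. It encodes a Sprouty protein and lies on chromosome 18 (38586247 to 38601415, minus strand). Its FPKM was 2.17 and 1.07 in 2i+LIF, 0.610 and 0.293 in 2i, 0.547 and 0.674 in LIF+PD, and 37.5 and 40.7 in CH+LIF. Thus it was near or below 1 in the media with PD except for replicate 1 of 2i+LIF. The mean in CH+LIF was 39.1 ± 2.23 (SD, n = 2), which is 24.1-fold that in 2i+LIF, and on the log2(FPKM + 1) scale the difference was 3.97 ± 0.22 (SE, adjusted p = 0.000234, limma). It was 4.80 against 2i and 4.64 against LIF+PD (adjusted p = 5.21e-05 and 4.69e-05, limma). These 3 calls were kept under each alternative that was run.

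Spry2 (chromosome 14, 105891947 to 105896819, minus strand) was the most strongly expressed Sprouty gene in every medium. Its FPKM was 35.6 and 33.6 in 2i+LIF, 12.3 and 11.3 in 2i, 18.3 and 18.3 in LIF+PD, and 52.3 and 46.5 in CH+LIF. The 4 media were fully separated, in the order CH+LIF, 2i+LIF, LIF+PD and 2i, and each neighbouring pair differed by the test. The steps were 0.50 between CH+LIF and 2i+LIF (adjusted p = 0.0104, limma), -0.88 from 2i+LIF to LIF+PD (adjusted p = 0.0010), and 0.60 between LIF+PD and 2i (adjusted p = 0.0045). Relative to 2i+LIF, Spry2 was therefore lower in the media lacking LIF or CH and higher in that lacking PD. The last was the smallest difference. The rise without PD was 1.43-fold and was not called without replicate 2 of 2i+LIF (adjusted p = 0.0646, limma) or replicate 1 of CH+LIF (0.0666).

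Spry1, the weakest Sprouty gene in CH+LIF (chromosome 3, 37639947 to 37644598, plus strand), had FPKM of 1.71 and 2.10 in 2i+LIF, 2.94 and 3.32 in 2i, 1.50 and 0.997 in LIF+PD, and 6.52 and 7.95 in CH+LIF. The 4 media did not overlap. The rise without PD, 3.80-fold, was 1.50 ± 0.18 (SE) on the log2 scale (adjusted p = 0.00195, limma). LIF+PD was lower than 2i (-0.88, adjusted p = 0.0112, limma), a call that was lost without replicate 2 of 2i (0.0510) or replicate 2 of LIF+PD (0.0628). Neither 2i (0.51, adjusted p = 0.0885, limma) nor LIF+PD (-0.37, adjusted p = 0.167) was called against 2i+LIF. A gene model on the opposite strand overlaps Spry1.

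The SPRED genes, whose products hold back RAS and RAF, differed from each other. Spred1 (chromosome 2, 117121374 to 117182279, plus strand) had FPKM of 9.25 and 7.92 in 2i+LIF, 7.89 and 7.27 in 2i, 2.73 and 2.66 in LIF+PD, and 20.1 and 18.6 in CH+LIF. Its values in 2i+LIF and 2i lay side by side, those in LIF+PD were the lowest and those in CH+LIF the highest. Relative to 2i+LIF it rose without PD by 1.09 ± 0.12 (SE, adjusted p = 0.00154, limma) and fell by 1.37 on the log2 scale without CH (adjusted p = 0.000459), that is, 2.25-fold up and 3.19-fold down. Without LIF the change was -0.16 (95% interval -0.44 to 0.12, adjusted p = 0.396, limma). The calls without PD and without CH were kept under each alternative that was run.

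Spred2 (chromosome 11, 19924375 to 20024026, plus strand) was expressed evenly in the media with PD, at 24.4 and 26.3 in 2i+LIF, 28.8 and 29.2 in 2i, and 29.4 and 25.4 in LIF+PD, and reached 39.5 and 38.8 in CH+LIF. The rise without PD was 1.54-fold, or 0.61 ± 0.10 (SE) on the log2 scale (adjusted p = 0.00535, limma). CH+LIF was also higher than 2i (0.42, adjusted p = 0.0206, limma) and LIF+PD (0.50, adjusted p = 0.00786). The call against 2i was lost when any 1 culture of 2i or CH+LIF was left out (adjusted p between 0.0626 and 0.0920, limma). The other 2 were kept under each alternative that was run.

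The ETS factor genes, Etv4 and Etv5, also differed from each other. Etv4 (chromosome 11, 101769742 to 101785371, minus strand) had FPKM of 53.0 and 43.0 in 2i+LIF, 8.84 and 2.06 in 2i, 12.1 and 10.1 in LIF+PD, and 184 and 188 in CH+LIF. The media did not overlap, and the values spanned the widest range of the 10 genes on the log2(FPKM + 1) scale. Etv4 rose 3.88-fold without PD (1.94 ± 0.46, SE, adjusted p = 0.0234, limma), fell by 3.15 on the log2 scale without LIF (adjusted p = 0.00463, 8.82-fold) and fell by 2.02 without CH (adjusted p = 0.0201, 4.33-fold). The difference was 5.09 between CH+LIF and 2i and 3.96 between CH+LIF and LIF+PD (adjusted p = 0.000667 and 0.0011, limma).

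On the log2 scale the replicates of 2i differed for Etv4 more than those of any other medium, and the 4 media share 1 estimate of the spread. Leaving out either replicate of 2i+LIF or CH+LIF took away the call for Etv4 without PD, with adjusted p of 0.0773 (limma, without 2i+LIF replicate 1), 0.109 (2i+LIF replicate 2), 0.0989 (CH+LIF replicate 1) and 0.0870 (CH+LIF replicate 2). Its call without CH was lost likewise without any 1 culture of 2i+LIF or LIF+PD (0.0677 to 0.101). With no filter on weak genes, neither was made (0.0635 without PD and 0.0534 without CH). Both calls were kept without either 2i culture, and the call without LIF under each alternative. The size of the fall without LIF depended on the 2i cultures, at -4.00 without replicate 1 of 2i and -2.31 without replicate 2, and so did the difference between CH+LIF and 2i, at 5.94 and 4.25. LIF+PD and 2i did not differ by the test for Etv4 (1.14, adjusted p = 0.120, limma), but without replicate 1 of 2i they did (1.98, adjusted p = 0.00171).

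Etv5 (chromosome 16, 22381309 to 22439719, minus strand) had the highest FPKM of the 10 genes, at 199 and 183 in 2i+LIF, 240 and 249 in 2i, 210 and 160 in LIF+PD, and 222 and 208 in CH+LIF. Its values in 2i were the highest, and those of LIF+PD enclosed both 2i+LIF values. No comparison called Etv5 at the threshold. The change was 0.17 without PD (95% interval -0.14 to 0.48), 0.35 without LIF (0.05 to 0.66, adjusted p = 0.106, limma) and -0.06 without CH (-0.37 to 0.25). The change without LIF was called on leaving out replicate 1 (0.0428) or 2 (0.0432) of LIF+PD. Without PD, a change of Etv5 as large as that of Spred1 or Etv4 thus lay outside the interval. Its deposited FPKM exceeded the upper bound deposited with it in all 8 cultures, as did that of Etv4 in both CH+LIF cultures and that of Spry2 in 1, which makes 11 of the 80 values of these genes. Over all genes with an FPKM of at least 1, 10.1% of the values lay outside their bounds.

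**Figure D2:**
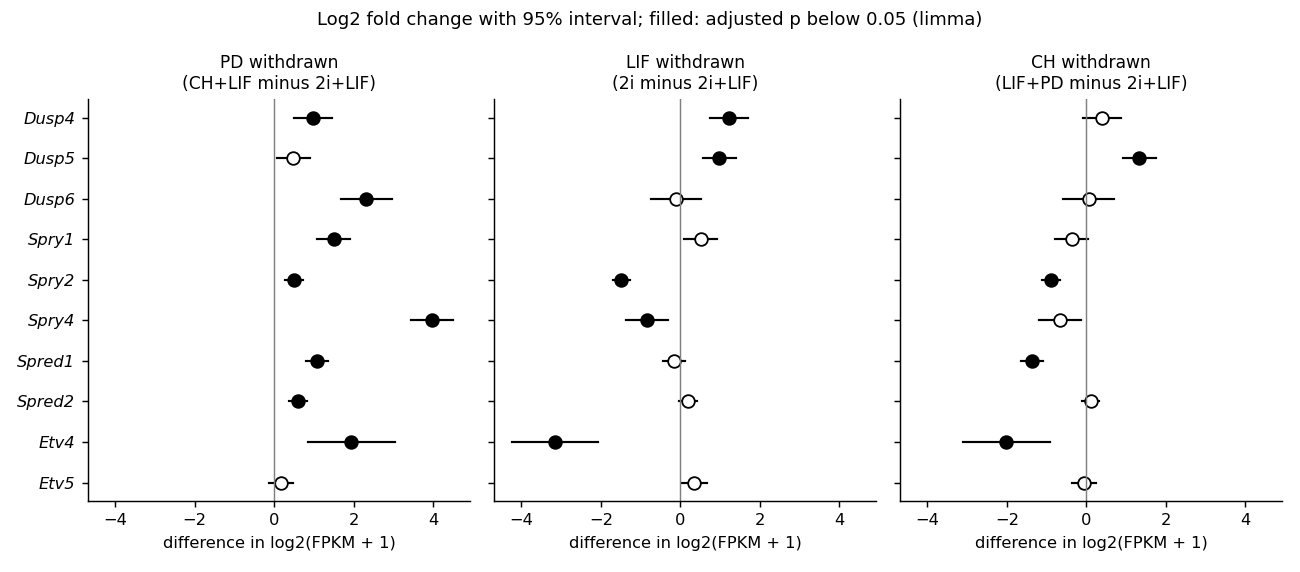
Difference in log2(FPKM + 1) with its 95% interval for the 10 genes between the medium lacking PD, LIF or CH and 2i+LIF. Points are filled where the adjusted p of limma was below 0.05. Without PD 8 points are filled, all to the right of 0, whereas without LIF 2 lie to the right and 3 to the left, and without CH 1 and 3.

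In the media lacking LIF or CH, which held PD, the 10 genes did not shift in 1 direction relative to 2i+LIF. In 2i compared with 2i+LIF, Dusp4 and Dusp5 were called higher and Spry2, Spry4 and Etv4 lower, where 9.77% of all genes were called higher and 8.86% lower, and the median of the 10 genes was 0.04. In LIF+PD compared with 2i+LIF, Dusp5 was called higher and Spry2, Spred1 and Etv4 lower, where 14.8% of all genes were higher and 10.4% lower, and the median was -0.22. With TPM, the share of all calls that were higher in LIF+PD rose from 58.6% to 74.8% (median shift 0.12), and 4 of the 10 genes were still called. These comparisons and that without PD use the same 2i+LIF cultures. The call of Spry4 in 2i (-0.83, adjusted p = 0.0428, limma) rests on values near 1 FPKM. It was not made with a pseudocount of 5 (-0.28, adjusted p = 0.0949), without a filter (0.0944), with the stricter filter (0.0551), or with the 2 conditions fitted alone (0.131). It was lost in 7 of the 8 fits that left out 1 culture (0.0663 to 0.177), and kept only without replicate 2 of 2i+LIF. Without CH, Spry4 was not called (-0.67, adjusted p = 0.0672, limma), except without replicate 2 of 2i+LIF (0.0307) and with quantile normalization (0.0363).

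The media that lack PD, LIF or CH can also be set against each other directly, which tests whether these media differed. CH+LIF was higher than 2i for 7 of the 10 genes and lower for 0, where 10.6% of all genes were called higher and 13.3% lower. The 7 were Dusp6, Spry1, Spry2, Spry4, Spred1, Spred2 and Etv4. The call for Spry1 (0.99, adjusted p = 0.00849, limma) was lost without replicate 2 of CH+LIF (0.0536). With TPM, the share of higher calls among all genes rose from 44.5% to 64.1% (median shift 0.12), with 7 of the 10 genes called. Relative to LIF+PD, the same 7 genes were higher in CH+LIF and Dusp5 was lower, where 12.6% and 17.8% of all genes were called higher and lower. The largest of these differences were 4.64 for Spry4, 3.96 for Etv4 and 2.46 for Spred1. Dusp4 (0.58, adjusted p = 0.0668, limma) was called without replicate 1 (0.0318) or 2 (0.0309) of 2i, with TPM (0.0441), with quantile normalization (0.0279) and with the 2 conditions fitted alone (0.0414), and Etv5 (0.23, 0.231) only without replicate 1 of LIF+PD (0.0423).

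Between the 2 media that keep PD but lack LIF or CH, 1 gene was higher in LIF+PD than in 2i (Spry2, 0.60) and 3 were lower, where 14% and 11.1% of all genes were called higher and lower. The 3 were Dusp4 (-0.83, adjusted p = 0.0239, limma), Spry1 (-0.88) and Spred1 (-1.21, adjusted p = 0.000588). The call of Dusp4 was lost without replicate 1 of 2i (0.0914), without either LIF+PD culture (0.0783 without replicate 1 and 0.104 without replicate 2), and with the 2 conditions fitted alone (0.0761). That of Spred1 was kept under each alternative that was run. Etv5 was lower in LIF+PD by 0.41, which was not called (adjusted p = 0.0584, limma), but was without replicate 1 of LIF+PD (0.0161).

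**Figure D3:**
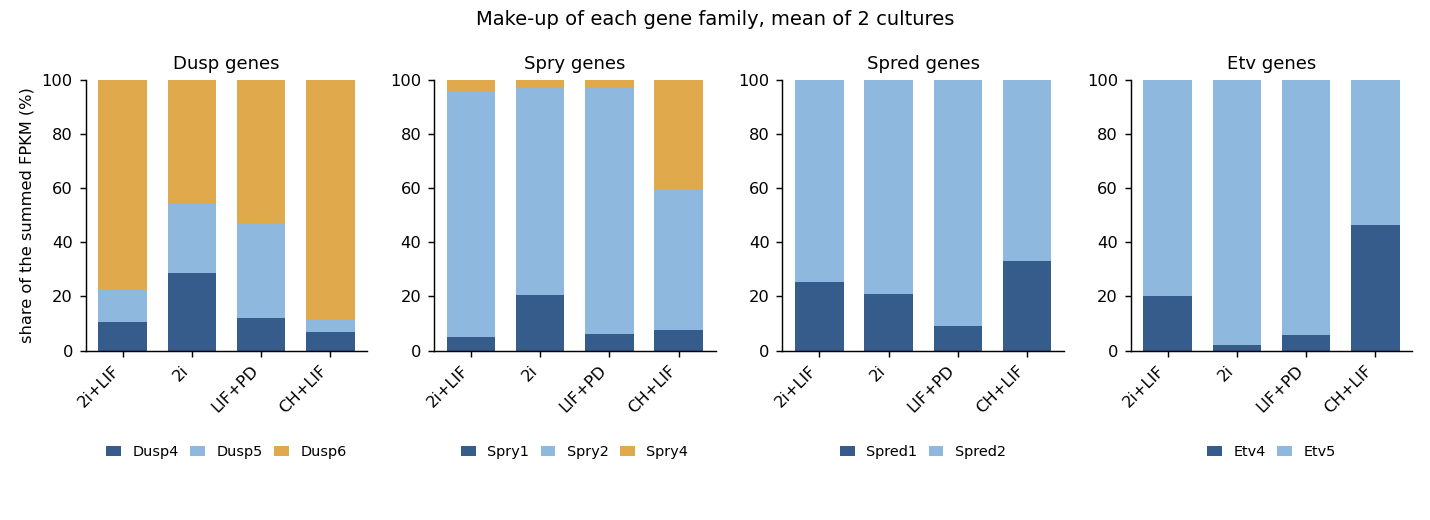
Share of each gene in the summed FPKM of its family (percent, mean of 2 cultures) in the 4 media, as stacked bars. In CH+LIF, Spry4 makes up 40.8% of the Sprouty sum and Etv4 46.4% of the ETV sum, against at most 4.21% and 20.0% in the media with PD.

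The make-up of each family changed with the medium. Of the summed FPKM of the 3 Sprouty genes, Spry2 held 90.8% ± 0.844 (SD, n = 2) in 2i+LIF, 76.6% ± 1.29 in 2i and 90.8% ± 1.21 in LIF+PD, but 51.6% ± 3.82 in CH+LIF, where Spry4 held 40.8% ± 2.69. The sum itself was 38.1 in 2i+LIF, 15.3 in 2i, 20.2 in LIF+PD and 95.8 in CH+LIF. The share of Spry1 was largest in 2i, at 20.5% ± 2.62, where the FPKM of Spry2 was lowest and that of Spry1 was 3.13, against 1.90 in 2i+LIF and 1.25 in LIF+PD.

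Etv5 held 80.0% ± 1.45 (SD, n = 2) of the sum of the ETV pair in 2i+LIF, 97.8% ± 1.93 in 2i, 94.3% ± 0.354 in LIF+PD and 53.6% ± 1.50 in CH+LIF. In single cultures, Etv4 amounted to 0.831 and 0.905 of the FPKM of Etv5 in CH+LIF, to 0.267 and 0.235 in 2i+LIF, to 0.0575 and 0.0631 in LIF+PD, and to 0.0369 and 0.00827 in 2i. The pair was therefore close to equal only in the medium without PD.

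Among the phosphatases, Dusp6 held 88.5% ± 0.316 (SD, n = 2) of the sum in CH+LIF, 77.7% ± 1.16 in 2i+LIF, 53.1% ± 7.38 in LIF+PD and 45.8% ± 5.28 in 2i. In 2i, Dusp4 and Dusp5 made up 28.5% ± 2.55 and 25.7% ± 7.83. Spred1 held 33.0% ± 0.961 of the Spred sum in CH+LIF, 25.3% ± 3.05 in 2i+LIF, 20.7% ± 1.13 in 2i and 8.99% ± 0.685 in LIF+PD. The shares describe levels already tested above and were given no test of their own.

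**Figure D4:**
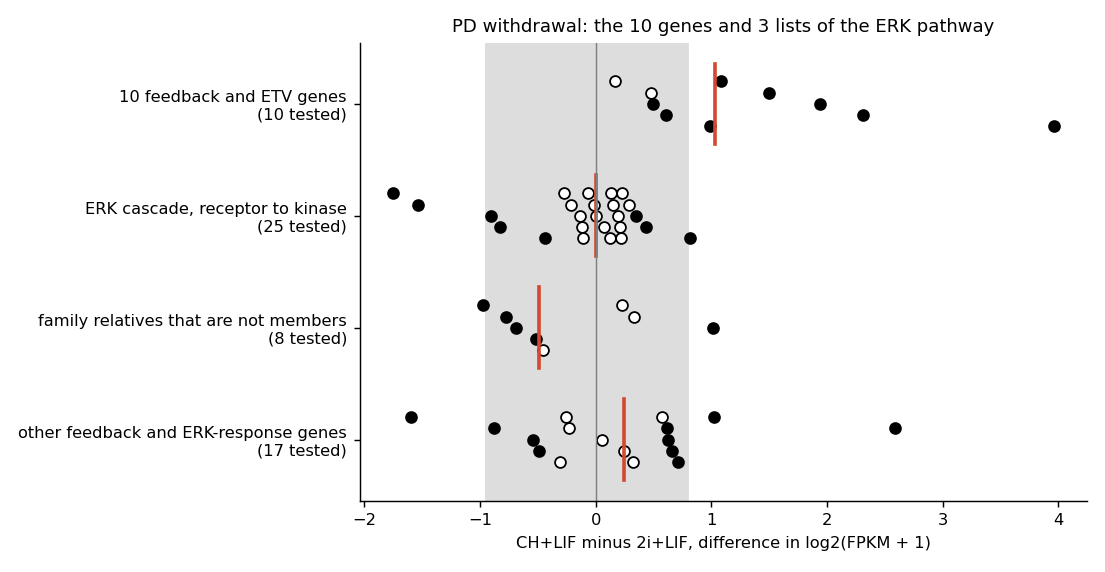
Difference in log2(FPKM + 1) between CH+LIF and 2i+LIF for the 10 genes and for the tested genes of 3 lists, with red lines at the medians, filled points at an adjusted p below 0.05 and the 5th to 95th percentile of all genes, -0.95 to 0.80, in grey. The medians of the lists are 0.0042, -0.49 and 0.25, against 1.04 for the 10 genes.

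Other genes of the pathway were read from 3 lists to place the 10 beside them. Of 28 genes of the cascade from ligand to kinase, 25 were tested, and without PD 3 were higher and 5 lower, with a median of 0.0042. Over all genes, 12.2% were called higher and 13.3% lower. Higher were Ptpn11 (0.81), Gab1 (0.43) and Nras (0.35), which act between the receptors and RAF. Lower were Sos2 (-1.75), a RAS activator, Fgfr2 (-1.54), an FGF receptor, the scaffold Ksr1 (-0.90), the ligand Fgf4 (-0.82) and Rasa1 (-0.44), which switches RAS off. With TPM the counts were 6 higher and 4 lower, and Rasa1 was not called (adjusted p = 0.227, limma). Over all genes, 3919 were then called, 74.1% of them higher. The call of Rasa1 was lost without any 1 of the 8 cultures (0.0507 to 0.223) and with the replicate block (0.0553). That of Nras was lost without either culture of 2i+LIF or LIF+PD or without replicate 1 of CH+LIF (0.0526 to 0.173), and that of Ptpn11 without replicate 2 of 2i+LIF (0.0730) or of CH+LIF (0.0655). Without 1 of the cultures, 1 to 3 were higher and 4 lower.

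Of 11 other members of these families, 8 were tested, and without PD 1 was higher and 4 lower, with a median of -0.49, where 12.2% of all genes were called higher and 13.3% lower. Higher was Dusp9 (1.01), a cytoplasmic ERK phosphatase. Lower were Dusp1 (-0.97), Dusp10 (-0.77), Dusp14 (-0.69) and Dusp16 (-0.52), of which Dusp10 and Dusp16 encode phosphatases that act mainly on the stress kinases JNK and p38. With TPM, Dusp14 (adjusted p = 0.113, limma) and Dusp16 (0.168) were not called. The call of Dusp16 was also lost with a replicate block (0.0614), with 5 further settings (0.0516 to 0.0896) and in each fit without 1 culture except that without replicate 2 of CH+LIF. Those of Dusp10 and Dusp14 were lost without either 2i+LIF culture or without replicate 1 of CH+LIF (0.0529 to 0.187), and that of Dusp14 also without replicate 2 of CH+LIF (0.0857) and with no filter (0.0827). Without replicate 1 or 2 of 2i+LIF, or replicate 1 of CH+LIF, 1 relative was higher and 1 lower.

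Of 18 further feedback and ERK-response genes, 17 were tested, and without PD 6 were higher and 4 lower, with a median of 0.25. Over all genes, 12.2% were called higher and 13.3% lower. Higher were Myc (2.59), Elk3 (1.03), Flrt3 (0.71), Erf (0.66), Egr1 (0.63) and Il17rd (0.62). Il17rd, also known as Sef, is a membrane inhibitor of FGF signalling, and Egr1 is an immediate early gene. Egr1 reached an FPKM of 1 only in the CH+LIF cultures. It thus entered the test only through the medium in which it was called higher, so that its call lends no support to a rise without PD. Egr1 was weak (0.346 and 0.373 in 2i+LIF, 1.05 and 1.15 in CH+LIF), and its call was lost with a pseudocount of 0.1 (adjusted p = 0.103, limma) and in the fits without 1 culture of 2i+LIF, LIF+PD or CH+LIF (0.0519 to 0.138). The call of Flrt3 was lost without either 2i+LIF culture or replicate 1 of CH+LIF (0.0554 to 0.0778), and that of Erf without replicate 2 of 2i+LIF (0.0928) or of CH+LIF (0.0835). Lower were Epha4 (-1.60), Lrig1 (-0.88), Cic (-0.55) and Elk1 (-0.49). With TPM the counts were 7 higher and 2 lower, without Cic (adjusted p = 0.0644, limma) and Elk1 (0.0730). Over all genes, 3919 were then called, 74.1% of them higher. The calls of Cic and Elk1 were also lost without either 2i+LIF culture or without replicate 2 of CH+LIF. In fits without 1 culture the counts of this list varied.

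With PD kept, 4 of the 25 tested genes of the cascade were called without LIF and 3 without CH, where 9.77% and 8.86%, and 14.8% and 10.4%, of all genes were called higher and lower. Without LIF, Fgfr2 (1.24) and Fgfr1 (0.51) were higher and Sos2 (-0.99) and Fgf4 (-0.63) lower, and without CH, Fgfr2 (2.91) and Fgfr1 (0.96) were higher and Ksr1 (-0.61) lower. Fgfr2 was thus higher in both of these media and lower in CH+LIF, each relative to the same 2i+LIF cultures. With TPM, 2276 of all genes were called without LIF (61.4% of them higher) and 3479 without CH (74.8% higher). The counts for the cascade were then 4 higher and 2 lower without LIF, and 5 higher and 0 lower without CH. In fits without 1 culture they were 0 to 3 higher and 1 to 2 lower, and 2 to 3 higher and 0 to 1 lower. Among the relatives, Dusp9 was higher without LIF (0.98) and without CH (0.72), and Dusp16 was higher without CH (1.40). The call of Dusp9 without CH was lost when any 1 of the 4 cultures compared was left out. That without LIF was lost on leaving out replicate 2 of 2i+LIF. Lower without LIF were Etv1 (-1.42), Dusp14 (-0.81) and Dusp16 (-0.58), and lower without CH were Dusp1 (-1.85) and Dusp10 (-1.50). Without LIF, Dusp16 was not called with a replicate block (adjusted p = 0.0542, limma), a pseudocount of 5 (0.0534), no filter (0.0759) or TPM (0.0753). Dusp16 was also not called with the 2 conditions fitted alone (0.0574) or without any 1 culture of 2i+LIF, 2i or LIF+PD. Without LIF, Dusp14 was not called with no filter (0.0624), with the 2 conditions fitted alone (0.0529), or without either 2i culture or replicate 1 of 2i+LIF. In fits without 1 culture, 0 to 1 of the relatives were higher and 1 to 3 lower without LIF, and 1 to 2 higher and 2 lower without CH.

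Of the further response genes, Ccnd1 (0.82), Flrt3 (0.66) and Errfi1 (0.52) were higher without LIF, and Epha4 (-0.90), Ets2 (-0.90), Ier3 (-0.82), Erf (-0.68) and Cic (-0.48) were lower. Over all genes, 9.77% were called higher and 8.86% lower without LIF, and 14.8% and 10.4% without CH. The calls of Flrt3, Errfi1 and Cic without LIF were lost when any 1 of the 4 cultures compared was left out. Those of Ets2 and Erf were lost without some of these cultures. Without CH, Fos (0.85), Ier3 (0.82) and Ccnd1 (0.45) were higher and Il17rd (-1.26), Errfi1 (-0.65) and Flrt3 (-0.59) lower. Of these, the calls of Fos, Ccnd1 and Flrt3 were lost when any 1 of the 4 cultures compared was left out. Il17rd, like Spred1, was lower without CH and higher without PD, though its call without PD was lost when any 1 of the 4 cultures compared was left out (adjusted p up to 0.0854, limma). Leaving out 1 culture left 1 to 3 of these genes higher and 2 to 5 lower without LIF, and 1 to 3 higher and 2 to 3 lower without CH.

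The genes whose pattern over the 8 cultures was most like that of each of the 10 were found by the root mean square difference of centred log2(FPKM + 1) values. For Spry4 they were mmu-mir-8112 (0.64), Ptrf (0.66) and Trf (0.81), the first of them listed at 0 in the media with PD, and Etv4 ranked 8th (0.97). For Etv4 they were Nkx6-2 (0.46), Gpx2 (0.80) and Ptrf (0.82), with Spry4 ranking 9th. Dusp6 was nearest to Gm20425 (0.29), Ankrd33b (0.34) and Myc (0.34), Spry1 to Nlrc4, Gstt2 and Plcb4, and Spred1 to Ccnjl, Stmn3 and Ddx58. Spry2 was nearest to Myl6b, Eef2k and Ppp1r14d. Patterns with little change between media, such as those of Spred2 (nearest Opa1, Ptcd3 and Champ1) and Etv5 (nearest Ric3, Cbx7 and Esco1), had close neighbours throughout. The nearest to Dusp4 were Gm14493, Rhof and Fam115c and to Dusp5 Creb3l1, Tmem2 and Mxra7. The cultures share their libraries, and these distances are a description without a test.

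Markers of other cell types moved with the medium as well. The summed FPKM of 3 mesoderm markers, T, Mixl1 and Eomes, was 46.8 and 27.8 in CH+LIF, 6.87 and 5.61 in 2i+LIF, 21.6 and 11.6 in 2i, and 1.63 and 2.16 in LIF+PD, so it was highest in the medium in which most of the 10 genes were highest. Of these, T (2.37) and Eomes (2.04) were higher without PD by the test, and Mixl1 was too weak to be tested. The summed FPKM of 4 primed epiblast markers ranged from 35.7 to 38.0 in 2i+LIF, from 56.5 to 84.0 in 2i, from 96.1 to 104 in LIF+PD and from 69.1 to 71.9 in CH+LIF, and Fgf5 was listed at 0 in both 2i+LIF cultures. In CH+LIF most of this sum was Dnmt3b, at 68.8 and 65.1, against 35.0 and 33.4 in 2i+LIF. Otx2 was nearly level between these 2 media, at 2.15 and 2.11 against 2.44 and 1.80. In LIF+PD, where Dusp5 was highest and Spred1 lowest, Otx2 was at 50.3 and 49.2. Summed neural markers (Sox1 and Pax6) were lowest in 2i+LIF, at 1.13 and 1.09, and highest in LIF+PD, where Pax6 was at 11.3 and 10.7. Sox1 did not follow this order. It was at 0 and 0.0595 in 2i, 0.557 and 0.631 in 2i+LIF, 0.748 and 1.34 in LIF+PD, and 1.04 and 1.83 in CH+LIF. Primitive endoderm markers stayed between 1.10 and 3.04 in sum, with Sox17 listed at 0 in both 2i cultures, and fibroblast markers between 0.270 and 4.19. The trophectoderm markers Cdx2 and Gata3 did not move together. Cdx2 was lower in CH+LIF (1.90 and 0.733) and in LIF+PD (0.0433 and 0.0960) than in 2i+LIF (10.2 and 7.91), whereas Gata3 was higher in LIF+PD (14.4 and 18.5) than in 2i+LIF (2.10 and 0.462), and Elf5 was listed at 0 in both CH+LIF cultures. Whether cells of these types were present, and what part they had in the changes of the 10 genes, was not tested.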

How the data were processed

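For 8 cultures of mouse ESCs, the authors deposited FPKM values per gene, with a lower and an upper bound. The paper's methods state alignment to mm10 with Ensembl 75 annotation, and the submitters' processing notes name TopHat2, Cufflinks and Cuffdiff, with versions not given in the sources used here. The methods describe rRNA-depleted RNA, the labels polyA RNA. FPKM values are scaled to each library and to transcript length, so that a few abundant genes can shift all others. Whole reads could not be recovered. No error is given for a value apart from the deposited bounds, which did not enter the tests. The study's own test ran on read counts, which were not used here.

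Of 39013 entries per file, 22 repeated an identifier and were summed. Values entered as log2(FPKM + 1) into limma 3.58.1 (R 4.3.3), with a mean-variance trend and no replicate block, in 1 fit of 4 conditions and 6 comparisons, adjusted by Benjamini-Hochberg. The script was tested on simulated data. Coordinates of genes are from GENCODE M21 (GRCm38), and promoters from RefSeq. Tables and figures were made with Python 3.11.15, numpy 2.4.6, pandas 2.3.3 and matplotlib 3.10.9.

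The genes, lists and tests were chosen with earlier results of these data known. Named were the 10 genes, the list genes with the largest change without PD, those in counts of 5 or fewer, the 3 genes nearest to each of the 10, and the markers. Egr1, among 6 higher genes, was named after its values were seen. For Flrt3, which has 2 identifiers, the one with the higher mean was used. Alternatives were other pseudocounts, filters, scalings and spreads, a replicate block, and leaving out each culture.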

Additional observations from a re-analysis of the deposited data

How the results depend on the processing

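Of 60 results (10 genes in 6 comparisons), 36 were called, and 0 of the 36 changed direction. Of these 36, 25 were called under every alternative in which the gene was tested. The 6 comparisons draw on the same 4 media, so the 60 results are not independent of each other. Over all genes tested, 8.86% (lower in 2i than 2i+LIF) to 17.8% (lower in CH+LIF than LIF+PD) were called per comparison and direction. With the stricter filter (FPKM of at least 5 in 2 cultures), 2 of the 10 genes were called without LIF, as Dusp4 and Dusp5 were no longer tested and Spry4 lost its call (adjusted p = 0.0551, limma). With the 2 conditions fitted alone, 1500 genes were called without LIF and 1808 between CH+LIF and 2i, against 2408 and 3089. Direction changed among results not called: Etv5 without CH was 0.077 with TPM, and with quantile normalization Dusp6 without CH was -0.019 and Spry4 in LIF+PD minus 2i was -0.0078. The cause was not tested.

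Leaving out each culture in turn gave 1520 to 3330 genes without PD, 1167 to 2141 without LIF, 1687 to 3342 without CH, 1494 to 2705 for CH+LIF minus 2i, 2311 to 3991 for CH+LIF minus LIF+PD and 1970 to 2966 for LIF+PD minus 2i. Of the 10 genes, 5 to 8, 4 to 5, 3 to 4, 5 to 7, 7 to 9 and 2 to 4 were called. Ranges that included both signs were -0.25 to 0.37 (Dusp6 without CH), -0.26 to 0.14 (Etv5 without CH), -0.42 to 0.20 (Dusp6 without LIF), -0.50 to 0.018 (Dusp4, CH+LIF minus 2i), and for LIF+PD minus 2i -0.14 to 0.48 (Dusp6), -0.00058 to 0.32 (Spry4) and -0.18 to 0.019 (Spred2). A fit that leaves 1 culture in a medium takes its spread from the others.

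Deviations of same-numbered cultures correlated weakly, at -0.03 to 0.09. Such values over all genes cannot show whether the replicate numbers pair the cultures. With a replicate block, 3519, 2547, 3470, 3338, 4105 and 3467 genes and 8, 5, 4, 7, 8 and 5 of the 10 were called, in the order above, with Etv5 added in LIF+PD minus 2i (adjusted p = 0.0421, limma).

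With 2 cultures per medium and 1 line, only the spread between these cultures is covered, and depth is known only as a ratio between libraries. Weak genes (Dusp4, Dusp5, Spry1 and Spry4 with PD) lie near the pseudocount.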
